A study of Arabidopsis thaliana with 13 samples.

Results

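Class III peroxidases are the plant-specific, secreted haem peroxidases. They use hydrogen peroxide to oxidise phenolic compounds, which cross-links lignin, suberin and wall proteins and stiffens the cell wall, and in another reaction they can form reactive oxygen species that loosen it. The family is large and many of its genes are transcribed mainly in roots. Cytokinins are plant hormones that restrain root growth and promote shoot development.

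The family was taken from a list, written by hand, of 73 class III peroxidase genes known from the published Arabidopsis genome. The gene tables used here give symbols and no descriptions. Of these genes, 55 had a probe set matching that gene alone, each exactly 1, and these 55 are the members described, among 13356 genes that have such a probe set and 22746 probe sets besides the controls. Another 7 genes were found only on 4 shared probe sets, and 11 had no listed probe set. The gene table (RefSeq, TAIR10.1) gives 7 of the 55 a peroxidase name, namely PRX25, PER36, Prx37, PRXR1, PRX52, PRX71 and PRX72. The other members are called by their locus, and their place in the family rests on the list alone. The locus AT3G20630, which carries PER1 as a synonym, was left out because its symbol in the table is that of a ubiquitin protease.

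Seedlings grown in liquid MS medium were profiled on Affymetrix Arabidopsis arrays after treatment with 6-benzyl adenine (BA), a synthetic cytokinin dissolved in diluted KOH, or with the solvent alone. They were of the wild type Col-0 or carried 35S::CKX1, a cytokinin oxidase gene under a constitutive viral promoter, which degrades cytokinins throughout the plant. Col-0 was sampled with solvent (2 arrays), after 15 min of BA (2 arrays) and after 120 min of BA (2 arrays), and CKX1 with solvent (3 arrays) and after 15 min of BA (4 arrays). Solvent plants were treated for 2 h, as long as the 120 min plants but longer than the 15 min plants, and the dose of BA is not given in the sources used here. The BA-treated Col-0 seedlings had grown for 6 days. No growth time is listed for the Col-0 solvent seedlings or for any CKX1 seedlings, so equal age is not established. Whether the CKX1 line is 1 insertion event or several is not given in the sources used here. The source field of Col-0 120 min array 1 names the control solution, while its title and description give 120 min of BA, and it was placed by its title. No listed single-gene probe set matched the CKX1 gene, so the transgene itself was not checked. Nothing in the labels states that the arrays of a group come from different cultures, and the p-values reflect only how these arrays vary, which may be technical. The material is whole seedlings, so fewer cells of a type and less RNA per cell cannot be told apart.

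Array medians lay between 30.5 and 39.5 signal units. 5 arrays stood apart from the other 8, namely array 2 of Col-0 at 15 min, both arrays of Col-0 at 120 min and array 3 of each CKX1 group. Their 25S ribosomal RNA control signals were, in this order, 92.5, 695.9, 548.2, 260.3 and 803.7 units, against 2.4 to 46.2 in the other 8, and they alone lay above 0 on the leading principal component of all probe sets. Within Col-0 this split runs along with the 120 min treatment, so leaving arrays out cannot tell them apart there. A covariate for the 25S signal cannot do so either. Of the root markers listed, 4 of 9 were measured and none was at 0, among them the root beta-glucosidase PYK10 at 2228.6 to 3862.6 units. Of the shoot markers, 1 of 6 was measured, the chlorophyll-binding protein gene LHCB4.1 at 3940.7 to 8940.2 units.

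A filter on low signal, applied to all probe sets, kept 46 of the 55 members. The 9 below it were AT1G14550, AT1G24110, AT2G24800, PER36, AT5G06730, AT5G19880, AT5G47000, AT5G58390 and AT5G58400, with mean signals of 1.2 to 20.7 units over the 13 arrays. PER36, which acts in seed coat mucilage release, read 0.5 to 4.5 units in the seedlings. Since a member could pass the filter through a single group where it was high, counts below refer to the 46 tested members.

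**Figure D1:**
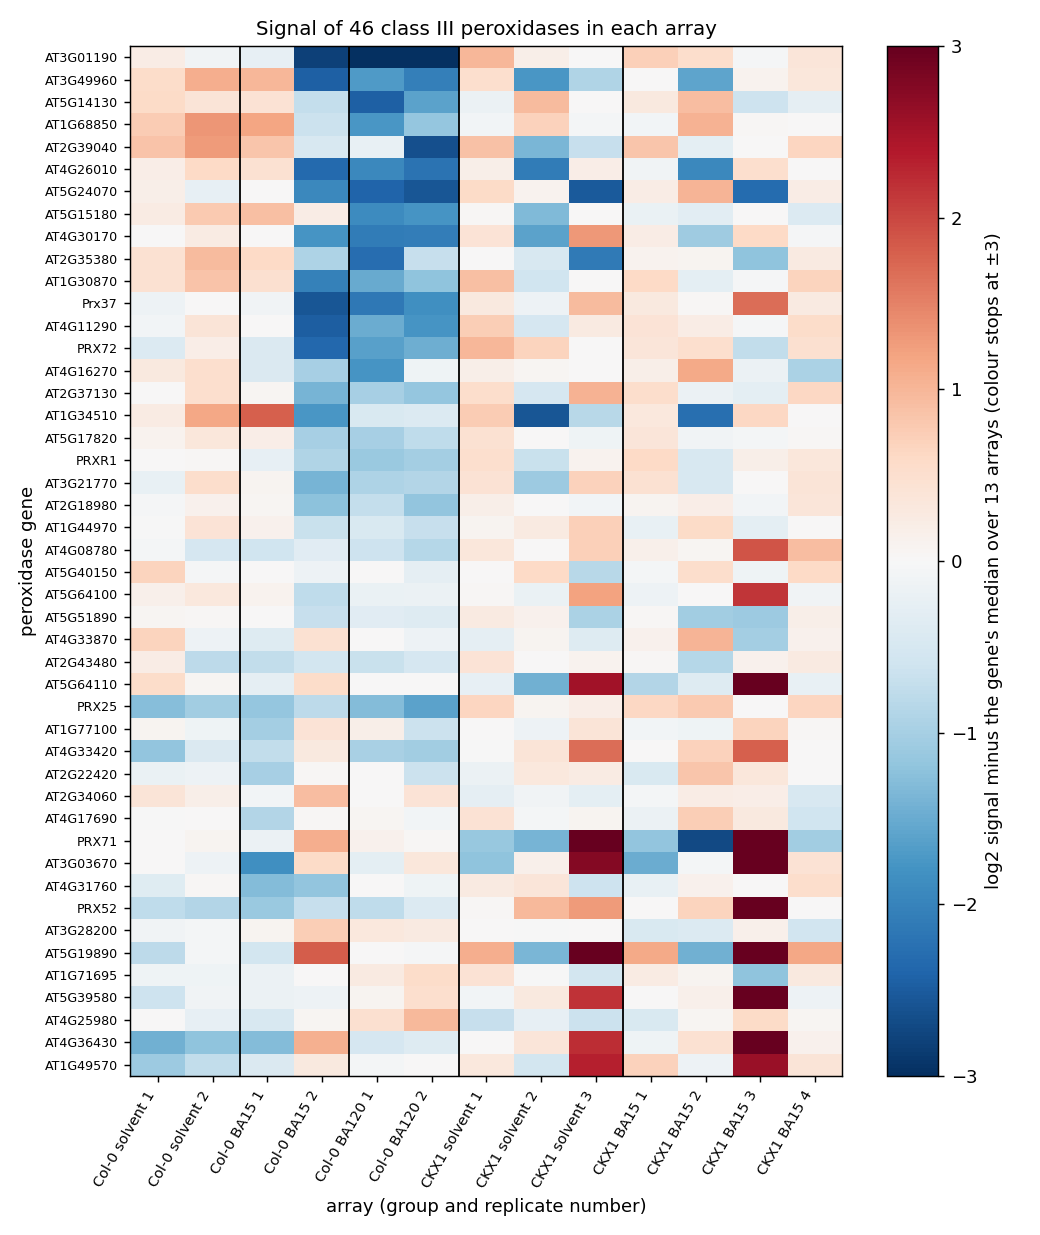
Signal of the 46 tested peroxidases (vertical axis, ordered by their log2 fold change after 120 min of BA in Col-0) in each of the 13 arrays (horizontal axis, group and replicate number). Colour gives the log2 signal minus that gene's median over the arrays, and stops at ±3; the upper part of the map is blue in the 120 min arrays of Col-0 and in array 2 of its 15 min group, and a set of genes is red in both CKX1 arrays numbered 3.

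The 6 members of highest mean signal were AT5G64100, PRXR1, PRX71, AT2G37130, AT5G17820 and AT5G39580. PRXR1 read 2068.5 and 2134.7 units in Col-0 with solvent, 1737.3 and 1099.8 after 15 min of BA, and 959.3 and 1012.3 after 120 min. In CKX1 it read 2944.0, 1302.8 and 2217.6 with solvent and 3144.9, 1483.3, 2336.4 and 2630.7 after 15 min of BA. Its Col-0 solvent arrays were thus above all 4 treated Col-0 arrays, while the CKX1 groups overlapped. AT2G37130 read 835.7 and 1181.8 units in Col-0 with solvent, 875.8 and 313.4 after 15 min, and 417.9 and 371.5 after 120 min, and in CKX1 it lay between 590.0 and 1715.2 units. AT5G17820 read 909.9 and 1064.9 units in Col-0 with solvent, 967.7 and 419.9 after 15 min, and 422.6 and 494.4 after 120 min, and between 771.6 and 1166.2 units in CKX1. For these 2 genes the 120 min arrays and array 2 of the 15 min treatment were low, and array 1 of the 15 min treatment lay between the solvent arrays. The other 3, AT5G64100, PRX71 and AT5G39580, were high in the CKX1 arrays numbered 3 and are described with those arrays.

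After 120 min of BA in Col-0, many members lay below their solvent values, AT3G01190 and AT5G15180 with the lowest p-values. No member of the 46 passed an adjusted p of 0.05 in limma (0.0377% of all probe sets tested did). At an unadjusted p under 0.05, 17 members (37%) were lower, against 7.84% of all probe sets, and 0 were higher, against 4.9%. In 27 members (58.7%) both treated arrays lay below both solvent arrays, against 37.4% of all probe sets, and in 7 (15.2%) both lay above, against 26.3%. The median log2 fold change of the members was −0.45, with a range from −4.04 to 0.88, and that of all probe sets tested was −0.11. With the 25S signal as a covariate the medians were −1.19 and −0.01, though within Col-0 the covariate cannot separate that signal from this treatment. With a filter at the 50th percentile, which kept 32 members, the medians were −0.88 and −0.08. Of the members 34 (73.9%) lay below 0, against 57.2% of all probe sets. Centring the arrays on their medians moved all probe sets to a median of 0.09 and the members to −0.25, and quantile normalization gave 0.01 and −0.48, so the members lay below the median of all probe sets under each scaling. Over all 55 members without the filter the median was −0.45 and 41 were below 0.

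AT3G01190 differed most. It read 550.4 and 442.1 units with solvent and 31.3 and 22.9 units after 120 min of BA, while the 15 min arrays read 397.6 and 65.5. In CKX1 it read 942.5, 533.2 and 472.9 with solvent and 778.2, 683.5, 462.9 and 607.4 after BA, so the 120 min arrays were the lowest of all 13. The log2 fold change at 120 min was −4.04 (SE 0.64) with a limma adjusted p of 0.0700, from means of 496.2 ± 76.6 and 27.1 ± 5.94 units (SD, n = 2 each). With the 25S signal as a covariate it was −3.49, with a limma adjusted p of 0.0458. That signal was 46.2 and 18.1 units in the Col-0 solvent arrays and 695.9 and 548.2 at 120 min. The covariate therefore cannot separate it from the treatment within Col-0.

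AT5G15180 read 56.3 and 83.5 units with solvent, 90.7 and 56.1 after 15 min and 10.3 and 11.4 after 120 min. Here the 15 min group overlapped the solvent group, and the 120 min arrays lay below all the other 11, of which the CKX1 arrays read 16.9 to 48.4 units. Its log2 fold change at 120 min was −2.34 (SE 0.44, adjusted p 0.0888). With a block for the replicate number, whose pairing was not established in Col-0, the limma adjusted p was 0.0164 as a fixed and 0.00714 as a random effect.

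AT5G14130 read 32.5 and 27.8 units with solvent and 0.6 and 4.5 after 120 min, with 29.0 and 11.2 at 15 min. AT1G68850 read 29.2 and 44.3 units with solvent and 2.3 and 5.1 after 120 min, with 40.1 and 8.9 at 15 min. Both genes were lowest of all arrays at 120 min, and their log2 fold changes were −2.51 (SE 0.60) and −2.50 (SE 0.60), each with a limma adjusted p of 0.151. These signals are dim, and at 120 min they lay near the floor of 1 unit and the added pseudocount of 3.39 units. The size of their fold changes therefore depends on these settings. AT2G39040 read 76.3 and 103.2 units with solvent and 34.4 and 3.6 after 120 min, so its treated arrays differed from each other by a larger ratio than its solvent arrays did (log2 fold change −2.50, SE 0.83, adjusted p 0.277).

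**Figure D2:**
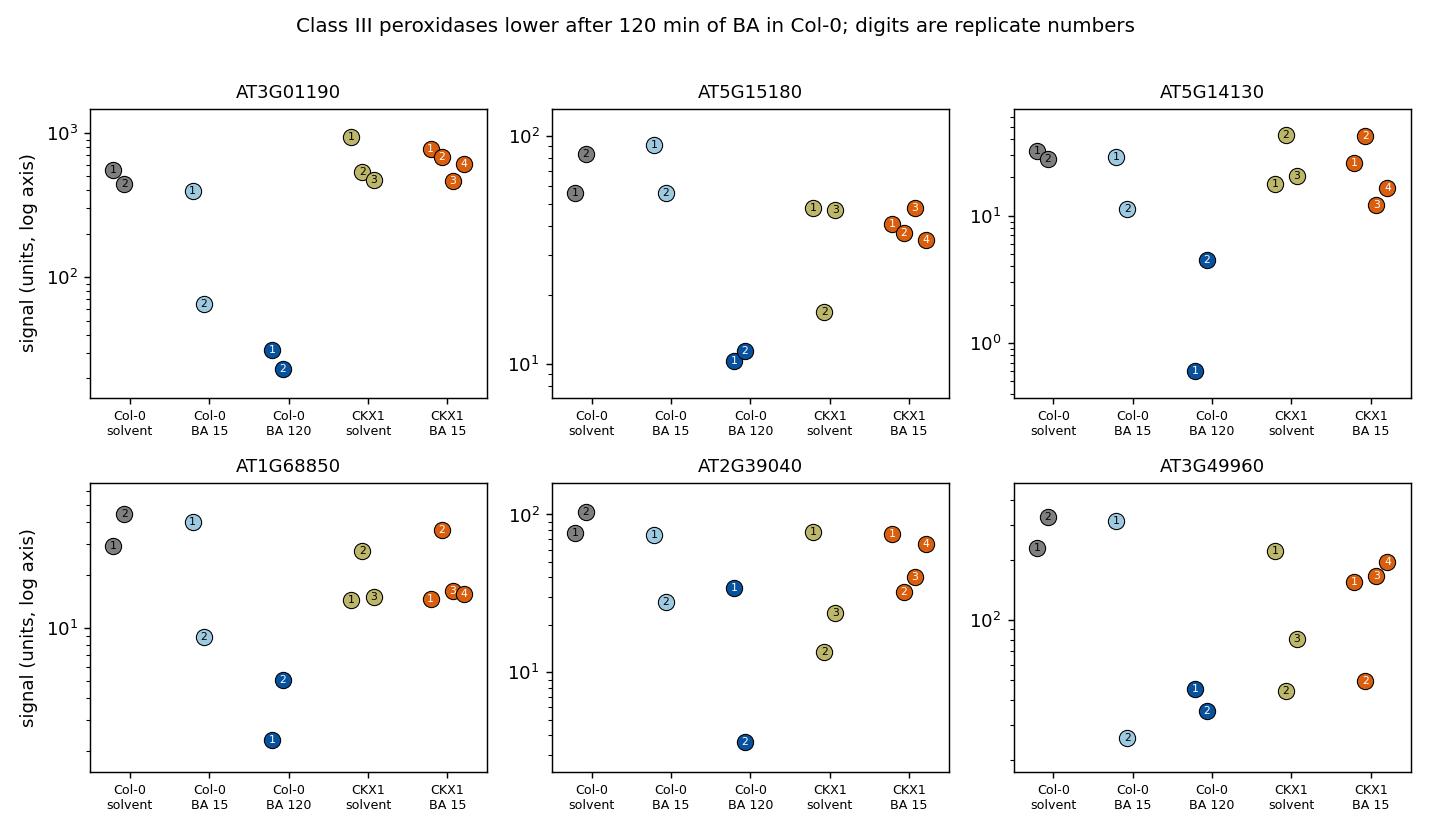
Signal (log axis, units) of 6 peroxidases in the 13 arrays; each point is 1 array, its digit is the replicate number and the columns are the 5 groups. In all 6 genes both Col-0 120 min arrays lie below both Col-0 solvent arrays, from 550.4 and 442.1 to 31.3 and 22.9 units in AT3G01190, and 15 min array 2 also lies below both solvent arrays, in AT5G15180 by the least, at 56.1 against 56.3 units.

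AT3G49960 read 228.9 and 330.5 units with solvent and 45.4 and 35.0 after 120 min. The fit gave −2.69 on the log2 scale (SE 0.99, adjusted p 0.310). At 15 min its arrays read 313.3 and 25.7 units, array 2 being the lowest of all 13. AT4G26010 and AT4G30170, chosen after their values were seen, were low in the same 3 Col-0 arrays. AT4G26010 read 846.4 and 1106.8 with solvent, 1008.0 and 142.0 at 15 min and 189.3 and 154.3 at 120 min. AT4G30170 read 612.2 and 720.8 with solvent, 617.9 and 177.8 at 15 min and 141.6 and 142.3 at 120 min. In both genes the CKX1 arrays numbered 2 were low as well. They read 168.6 and 188.7 units in AT4G26010 and 199.7 and 291.5 in AT4G30170. The 25S signal of those arrays was 2.4 and 11.1 units, and its part in these values was not tested.

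Among the members with a name in the gene table, Prx37 and PRX72 were also among the 17. Prx37, whose overexpression is known to dwarf plants, read 96.5 and 107.6 units with solvent and 21.7 and 27.8 after 120 min (log2 fold change −1.91, SE 0.71, adjusted p 0.313). PRX72, which acts in lignin formation, read 199.8 and 305.9 with solvent and 82.9 and 93.4 after 120 min (−1.46, SE 0.59, adjusted p 0.346). PRXR1 had a log2 fold change of −1.09 (SE 0.41, adjusted p 0.321). PRX71, another peroxidase linked to lignin and cell size, read 361.5 and 382.6 with solvent and 396.6 and 372.8 after 120 min, so its groups overlapped. PRX25, also linked to lignin, read 15.9 and 19.1 units with solvent and 15.7 and 11.9 after 120 min, a difference smaller than its SE (−0.29, SE 0.34). PRX52, likewise linked to lignin, read 9.6 and 8.6 units with solvent and 9.5 and 13.1 after 120 min, so its groups overlapped.

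Of the 17 members, all 17 were also below both solvent arrays in 15 min array 2 (43.3% of all probe sets were), whereas 4 were so in 15 min array 1 (31.9%). Both CKX1 arrays numbered 3, which shared the high 25S signal, lay below all 5 other CKX1 arrays in 4 of the 17 (23.1% of all probe sets) and below both Col-0 solvent arrays in 9 (38.9%). The choice of the 17 used the Col-0 arrays, so these counts describe them and test nothing. The count of called members at 120 min depended on how the spread was estimated. With only the groups compared in the limma fit it was 24 of 46 (23.1% of all probe sets called), with array weights 20 (21.8%), and with the 25S signal as a covariate 3 (0.565%), namely AT3G01190, AT5G15180 and AT5G64110. For AT5G64110 the log2 fold change was −2.93 with the covariate and −0.30 in the main fit. That gene read 67.2 and 47.1 units with solvent and 45.1 and 44.9 after 120 min. A block for the replicate number gave 9 when fixed (6.45%) and 7 when random (5.22%). Pairing by number was not established in Col-0, where deviations of number 1 correlated at −0.02 to 0.11 between groups. The random block applied 1 correlation, 0.461, to both genotypes. Both blocks called AT3G01190, AT5G15180, AT5G14130, AT1G68850, AT2G39040, AT4G30170 and PRXR1, and the fixed block also called AT4G26010 and AT5G24070.

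After 15 min of BA in Col-0, most members had a lower mean than with solvent, but the 2 treated arrays differed. No member passed an adjusted p of 0.05 (0% of all probe sets did). At an unadjusted p under 0.05, 2 members were lower (0.559% of all probe sets) and 0 higher (0.528%). The groups did not overlap in 8 members that were lower (15.1% of all probe sets) and 2 that were higher (11.6%). The median log2 fold change was −0.51, against −0.04 for all probe sets, and 35 of 46 members (76.1%) lay below 0, against 54.9%. Set against the solvent mean separately, 15 min array 1 had a member median of −0.13 and array 2 of −0.79. Array 1 was below both solvent arrays in 20 members (31.9% of all probe sets) and array 2 in 26 (43.3%), so the median without array 2 is −0.13.

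The 2 members with an unadjusted p under 0.05 were AT3G01190 and AT4G31760. AT3G01190 differed by −1.58 on the log2 scale (SE 0.64, limma adjusted p 1.00), with 397.6 units in array 1 and 65.5 in array 2, and without array 2 the difference was −0.31. AT4G31760 read 17.4 and 24.0 units with solvent and 7.5 and 8.5 after 15 min, with both treated arrays low (log2 fold change −1.07, SE 0.40, adjusted p 1.00). At 120 min it read 23.5 and 21.1 units, within the range of the solvent arrays.

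**Figure D3:**
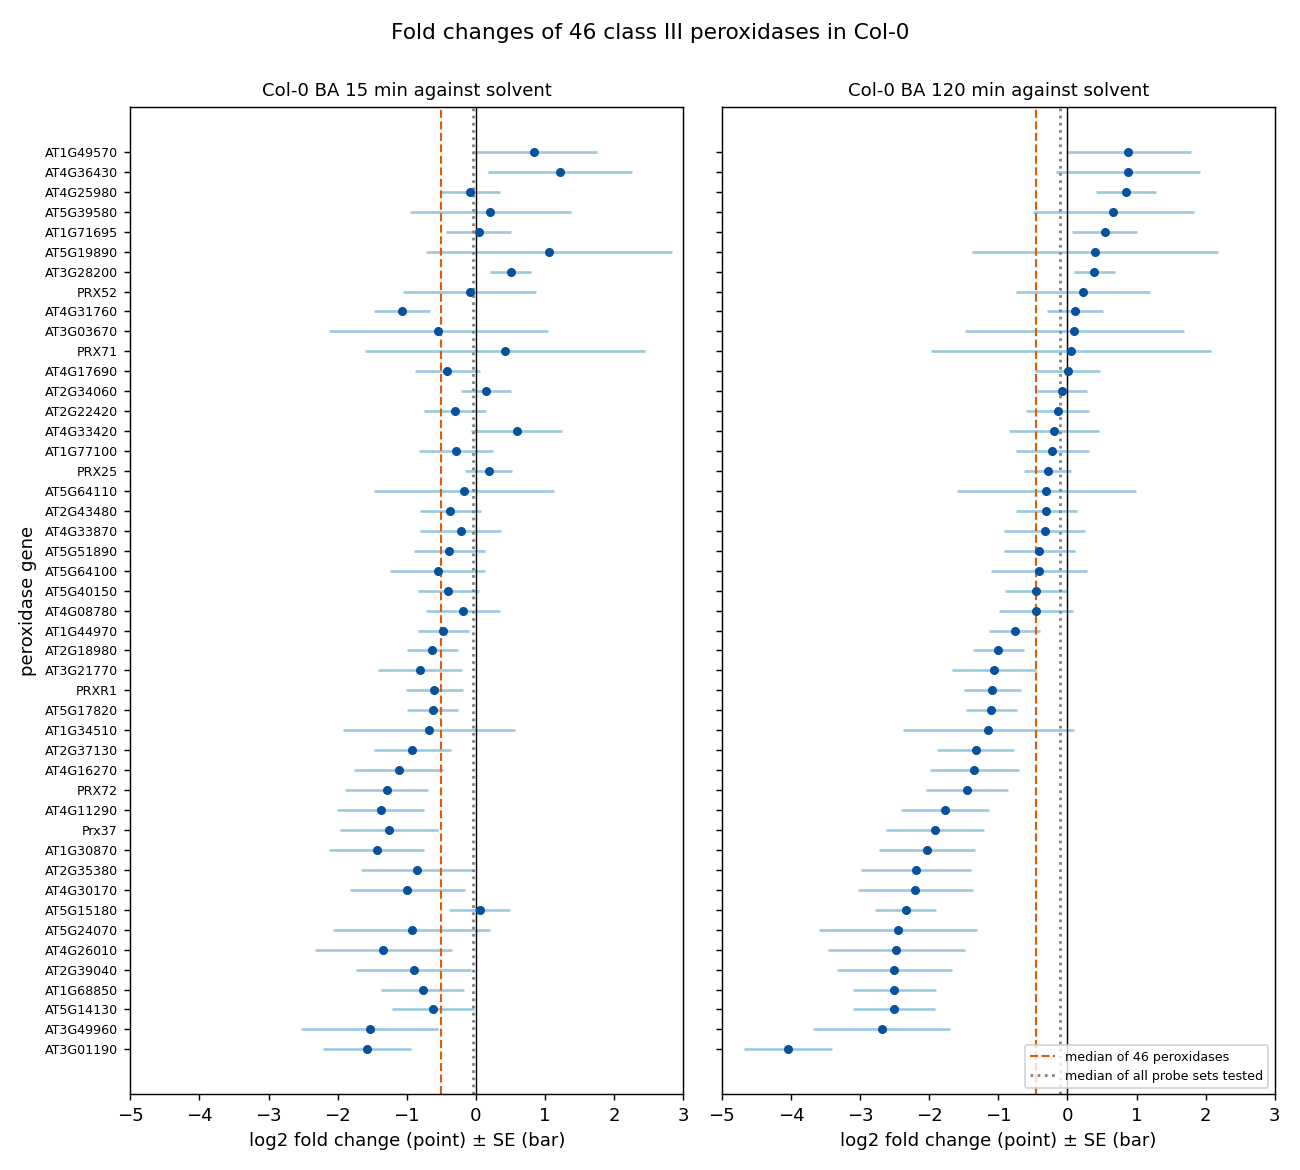
Log2 fold change (horizontal axis; points, with bars of 1 SE) of the 46 tested peroxidases (vertical axis) in Col-0 after 15 min (left) and 120 min (right) of BA against solvent. Dashed and dotted lines mark the medians of the peroxidases and of all probe sets tested, −0.51 and −0.04 at 15 min and −0.45 and −0.11 at 120 min; at 120 min the lowest member is AT3G01190 at −4.04.

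Between the 2 BA times in Col-0, no member passed (0.0188% of all probe sets did). At an unadjusted p under 0.05, 4 members were lower at 120 min (3.42% of all probe sets) and 1 was higher (1.92%). The lower ones were AT3G01190 (log2 fold change −2.46, SE 0.64), AT5G15180 (−2.39, SE 0.44), AT5G14130 (−1.89) and AT1G68850 (−1.73). Of these AT5G15180 had the lowest limma adjusted p, 0.198. The higher one was AT4G31760, at 7.5 and 8.5 units after 15 min and 23.5 and 21.1 after 120 min (log2 fold change 1.17, SE 0.40, adjusted p 0.765). In 34 of the 46 members the log2 fold change lay below 0 (55.7% of all probe sets), and the median difference was −0.31, against −0.07 for all probe sets. Without 15 min array 1 the members' median was −0.10, and without array 2 it was −0.32. Over all leave-one-out fits it ranged from −0.37 to −0.10. With the replicate block 1 member was called, AT5G15180, both with a fixed term (0.327% of all probe sets) and with a random term (0.32%). Pairing by that number was not established in Col-0. AT5G15180 was also the 1 member called with array weights (0.138%). With the 25S signal as a covariate 4 were called (0.911%), all as lower, namely AT5G15180, AT5G19890, AT5G64110 and PRX71. For AT5G19890, AT5G64110 and PRX71 the covariate gave log2 fold changes of −3.80, −2.51 and −3.98. The main fit gave −0.66, −0.13 and −0.37, and their groups overlapped. In CKX1 these genes were highest in the arrays numbered 3, whose 25S signal was high.

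In CKX1, no difference between 15 min of BA and solvent was detectable in any member with these 7 arrays. None passed an adjusted p of 0.05 (0.00628% of all probe sets did), none had an unadjusted p under 0.05 (0.835% of all probe sets were higher and 0.534% lower), and in none were the groups without overlap (1.13% and 0.854%). The median log2 fold change was 0.12, against −0.00 for all probe sets, and the members ranged from −0.40 to 0.69, with 14 of 46 below 0 (50.4% of all probe sets). The replicate numbers gave 3 pairs of a solvent and a BA array, and the deviations of same-numbered arrays correlated at 0.634, 0.58 and 0.73. Those of unlike number correlated at −0.507 to 0.467. In all 3 pairs 8 members were higher after BA (12.3% of all probe sets), namely AT1G49570, AT1G68850, AT2G34060, AT2G35380, Prx37, PRXR1, AT4G25980 and AT4G33420, and 2 were lower (13.5%), AT5G51890 and PRX72. PRXR1 was 3144.9 against 2944.0 units in pair 1, 1483.3 against 1302.8 in pair 2 and 2336.4 against 2217.6 in pair 3, so the differences within pairs were small beside those between pairs. PRX72 was 342.7 against 529.4, 378.9 against 421.2 and 158.5 against 264.6 units.

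The contrast of treatment effects between the genotypes was tested as an interaction. No member passed (0% of all probe sets did), with 1 higher (0.546%) and 1 lower (0.515%) at an unadjusted p under 0.05, AT4G31760 at 1.18 and AT3G28200 at −0.83, both with an adjusted p of 1.00. The median interaction of the members was 0.63, against 0.05 for all probe sets, and 7 of 46 lay below 0 (15.2%, against 46.1%). Without the 5 arrays of high 25S signal the median was 0.24. A difference in response between the genotypes was therefore not shown for any member.

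PRX71 and several other members stood apart in the CKX1 arrays numbered 3. In both of them 15 members (32.6%) lay above all 5 other CKX1 arrays, against 16.9% of all probe sets, and 8 (17.4%) lay below, against 23.1%. Among the 15, AT3G03670 and AT1G77100 reached the filter's log2 cut-off of 3.92 only through these 2 arrays. The filter thus favoured their place in this count, which describes the arrays and tests nothing. The 25S signal was 260.3 and 803.7 units in these 2 arrays and 2.4 to 21.0 in the other 5, and its part in the result was not tested.

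PRX71 read 4155.9 and 9249.2 units in these arrays, against 163.0, 136.2, 158.3, 52.7 and 172.9 in the other CKX1 arrays. The ratio of the means was 49.1, the largest among the 15 members, and the Col-0 arrays read 321.3 to 773.8 units. AT5G64100 read 4331.7 and 8225.1, against 1641.5 to 1922.3 units in the others, and AT5G39580 read 1379.8 and 5021.2, against 273.0 to 372.1 units. In Col-0 AT5G64100 read 2068.1 and 2314.1 units with solvent, 1999.3 and 1107.0 after 15 min and 1637.9 and 1645.6 after 120 min. Its solvent arrays there were thus above every treated array. AT5G39580 read 194.4 and 282.6 with solvent in Col-0, 268.5 and 272.8 after 15 min and 320.8 and 433.2 after 120 min. AT5G19890 (1034.3 and 2243.5 units, against 24.6 to 167.8) and AT5G64110 (274.6 and 443.7, against 14.5 to 37.9), both chosen after their values were seen, were also high in the 2 arrays. AT3G03670 read 102.2 and 268.2, against 2.2 to 17.5 units. In the gene table AT5G64100, AT5G64110 and PRX71 are neighbours, and all 3 were high in both arrays.

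**Figure D4:**
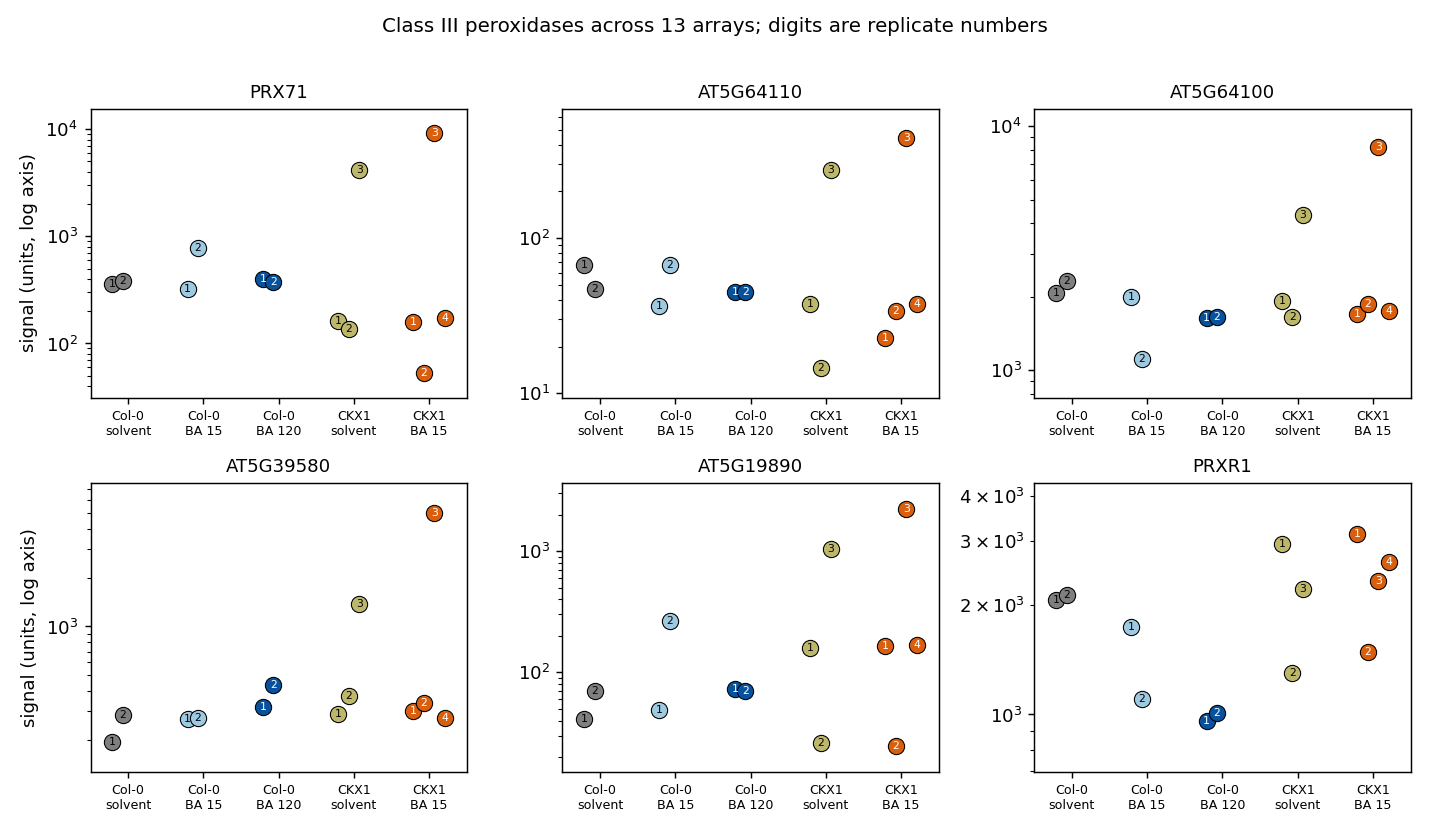
Signal (log axis, units) of PRX71, AT5G64110, AT5G64100, AT5G39580, AT5G19890 and PRXR1 in the 13 arrays; each point is 1 array, its digit is the replicate number and the columns are the 5 groups. The first 5 genes are highest in the CKX1 arrays numbered 3, with PRX71 at 4155.9 and 9249.2 units, while PRXR1 is not.

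The members below the other CKX1 arrays in the arrays numbered 3 included AT5G24070, at 1.1 and 1.8 units against 24.6 to 49.1, and PRX72, at 264.6 and 158.5 units against 342.7 to 529.4. PRX71 and PRX72, both of them linked to lignin, thus differed in opposite directions in the same arrays. These values describe 2 arrays whose labels match those of their groups, and no test compares them with the others, since the split was read from the data.

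Between the genotypes with solvent, no member passed (0.0126% of all probe sets did). At an unadjusted p under 0.05, 3 members were higher in CKX1 (1.51% of all probe sets) and 1 was lower (2.8%). The groups did not overlap in 8 members that were higher (9.41%) and 6 that were lower (14.9%). The median log2 fold change was 0.06, against −0.11 for all probe sets, and 22 of 46 members lay below 0 (59.8% of all probe sets). The sign of the members' median depended on the scaling, since quantile normalization gave −0.01 and centring the arrays on their medians gave 0.24, with all probe sets at −0.00 and 0.07. PRX25 read 69.2, 46.2 and 49.9 units in CKX1 and 15.9 and 19.1 in Col-0. Every CKX1 array was above every Col-0 array, and limma gave a log2 difference of 1.47 (SE 0.31, adjusted p 0.596). AT4G33420 had a log2 fold change of 1.49 (SE 0.60, adjusted p 0.897), with 235.2, 310.7 and 776.3 units against 103.8 and 174.5, and AT4G36430 one of 2.19 (SE 0.95, adjusted p 0.897), with 88.3, 114.9 and 423.9 against 30.1 and 36.6. In both, CKX1 array 3 was the highest. AT5G15180 was lower, at 48.4, 16.9 and 47.3 units against 56.3 and 83.5 (−0.94, SE 0.40, adjusted p 0.897).

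After 15 min of BA, more members than with solvent were higher in CKX1 at an unadjusted p under 0.05 (9 against 3). Those higher without overlap were not more (7 against 8). No member passed (0.0188% of all probe sets did), 9 were higher at an unadjusted p under 0.05 (3.72% of all probe sets) and 1 was lower (5.85%), and the groups did not overlap in 7 higher (6.48%) and 1 lower (9.19%). The median log2 fold change was 0.69, against −0.07 for all probe sets, and 9 of 46 members lay below 0 (55.4% of all probe sets). PRX25 read 67.9, 77.0, 43.3 and 69.5 units against 17.4 and 23.6, a log2 fold change of 1.49 (SE 0.30, adjusted p 0.124). Since Col-0 15 min array 2 was low in many members, the same comparison without it had a median of 0.33, and PRX25 then had a log2 fold change of 1.68 (adjusted p 0.757). With the 25S signal as a covariate PRX25 was the 1 member called (0.559% of all probe sets), and without Col-0 15 min array 1 AT3G01190 and AT4G11290 were called (0.188%). AT3G01190 (1.91, SE 0.55, adjusted p 0.327) and Prx37 (1.90, SE 0.62, adjusted p 0.354) were above Col-0 largely through that array, at 65.5 and 15.4 units in it against 397.6 and 99.4 in array 1. PRX52 (1.99, SE 0.84, adjusted p 0.482) read 18.6, 31.6, 272.8 and 18.8 units in CKX1 and 6.7 and 10.2 in Col-0. AT4G31760 had a log2 fold change of 1.35 with an adjusted p of 0.250.

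Over all arrays, 3 members were higher in every one of the 7 CKX1 arrays than in any of the 6 Col-0 arrays (6.52%, against 0.923% of all probe sets), namely PRX25, PRX52 and AT4G08780, and 0 were lower in every one (1.46% of all probe sets). PRX25 lay at 43.3 to 77.0 units in CKX1 and at 11.9 to 23.6 in Col-0. PRX52 lay at 18.6 to 272.8 and 6.7 to 13.1 units, and its highest value was in CKX1 15 min array 3. Its Col-0 group means of 9.1, 8.45 and 11.3 units lie under the filter's log2 cut-off of 3.92. It was thus tested only because of its CKX1 values, and the filter favoured its place in this count. AT4G08780, which neighbours Prx37 in the gene table, lay at 23.4 to 95.7 and 11.4 to 22.3 units. CKX1 and Col-0 differ in genotype and in any unstated difference between the lines, which cannot be told apart here.

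**Figure D5:**
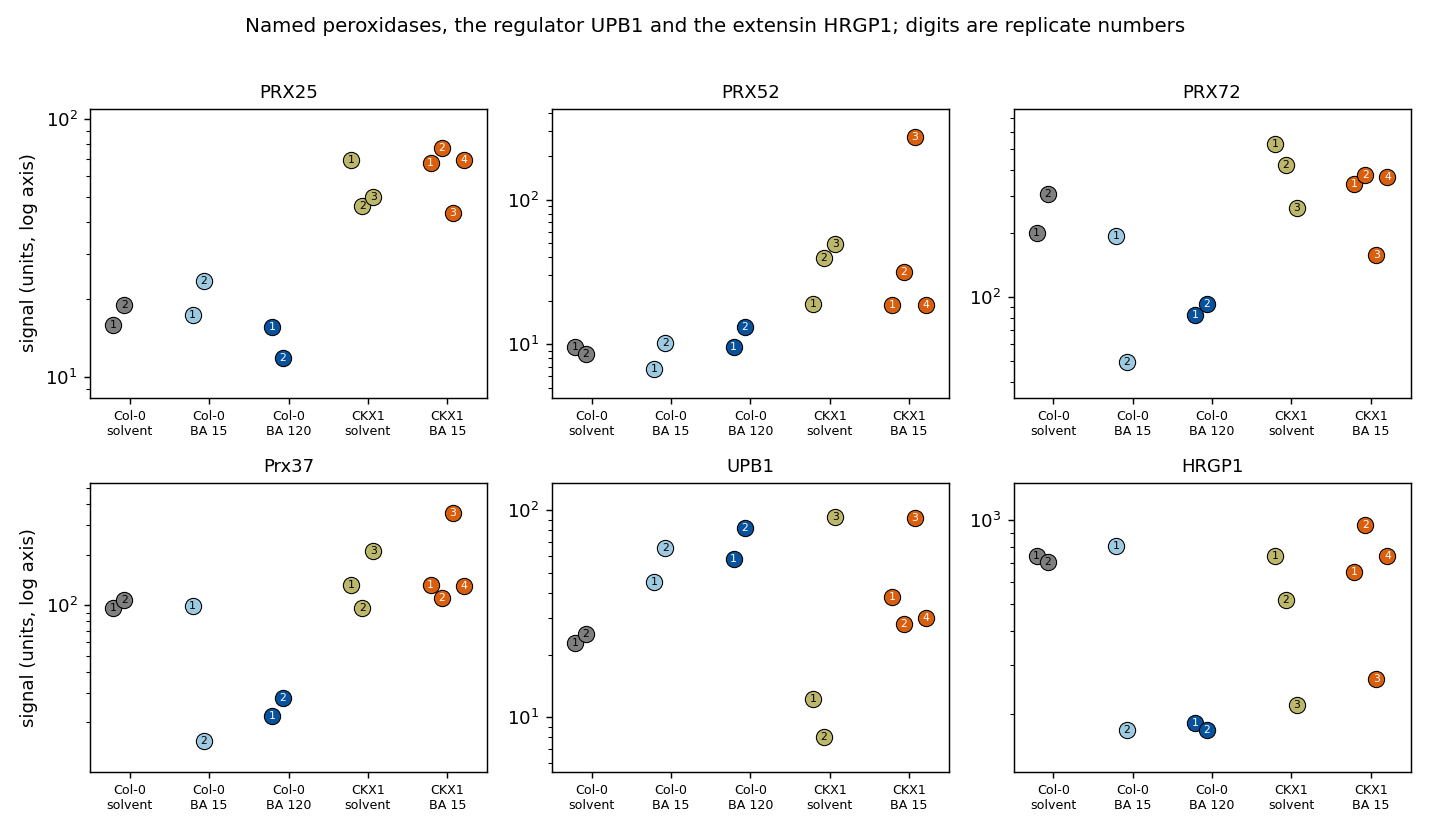
Signal (log axis, units) of PRX25, PRX52, PRX72, Prx37, UPB1 and HRGP1 in the 13 arrays; each point is 1 array, its digit is the replicate number and the columns are the 5 groups. PRX25 is at 43.3 to 77.0 units in all 7 CKX1 arrays and at 11.9 to 23.6 in all 6 Col-0 arrays. HRGP1 is low in the 120 min arrays of Col-0, in array 2 at 15 min and in both CKX1 arrays numbered 3.

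The genes around the peroxidases were represented on few single-gene probe sets, and none of those tested passed in any of the comparisons. Of the enzymes that make monolignols, the lignin precursors, 2 of 18 were measured and 1 was tested, HCT, with log2 fold changes of 0.27 at 15 min and −0.46 at 120 min in Col-0. Of the laccases, which also polymerise lignin, 1 of 17 was measured, at 1.3 to 9.4 units, and of the NADPH oxidases, which make superoxide, 3 of 10 were measured and 1 tested. None of the 8 genes of reactive oxygen scavenging had a single-gene probe set. Of the extensins, wall glycoproteins that peroxidases cross-link, 1 of 5 was measured. HRGP1 read 743.8 and 703.8 units in Col-0 with solvent, 809.0 and 175.6 after 15 min and 186.4 and 176.0 after 120 min, low in the same 3 Col-0 arrays as AT3G49960. In CKX1 it read 216.2 and 268.3 units in the arrays numbered 3 and 516.1 to 961.3 in the others. The low arrays were thus those of high 25S signal, whose part was not tested. For HRGP1 the log2 fold change at 120 min in Col-0 was −1.98 (SE 0.74, limma adjusted p 0.316). UPB1, a transcription factor known to repress peroxidase genes in the root tip, was measured as 1 of 4 regulators. It read 22.8 and 25.3 units with solvent, 45.0 and 65.5 after 15 min and 58.4 and 82.2 after 120 min in Col-0, so all 4 treated arrays were above both solvent arrays, while 12.2, 8.0 and 92.4 with solvent and 37.9, 28.3, 91.9 and 30.0 after BA in CKX1 overlapped. Its log2 fold change in Col-0 was 1.07 (SE 0.83) at 15 min and 1.41 (SE 0.83, adjusted p 0.513) at 120 min.

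The root markers moved unevenly beside the peroxidases. The root-hair expansin genes EXPA7 and EXPA18 read 135.9 and 163.0, and 174.0 and 221.7 units, in Col-0 with solvent. After 120 min of BA they read 39.8 and 32.6, and 63.5 and 67.4 units (log2 fold changes −1.95 and −1.54, adjusted p 0.207 and 0.306), and in 15 min array 2 they read 40.4 and 64.3. PYK10 had a log2 fold change of 0.16 at 120 min and AT1G62500, a further root gene on the list, one of 1.40. The summed signal of the 4 markers was 3521.0 and 3690.5 units with solvent, 2747.5 and 2530.4 after 15 min and 3575.9 and 4078.2 after 120 min in Col-0, and 2768.1 to 3956.2 in CKX1. Most of this sum was PYK10, at 3163.2 of 3521.0 units in Col-0 solvent array 1, so it mainly follows that gene. LHCB4.1, the shoot marker, read 4233.5 and 4977.9 units with solvent and 6267.2 and 8940.2 after 120 min. The part of the root and shoot markers in the peroxidase values was not tested.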

How the data were processed

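Class III peroxidase transcripts were examined in 13 arrays of 5 groups. Per the labels' protocols, a service centre returned normalized expression values, and the deposited table gives these as linear intensity values, 1 for each probe set in each array. Software and scaling: not given in the sources used here. Sample titles gave the groups, and 0 sample columns were left unused. Probe sets were assigned to genes through GEO's platform annotation and the RefSeq gene table (TAIR10.1). The family list of 73 published loci was written by hand and was not checked against gene descriptions. Signals under 1 were set to 1, a pseudocount of 3.39 (0.1 of the median of 33.9) was added, and log2 was taken. Probe sets under the 30th percentile of mean log2 value were filtered, which left 15922 of 22810 (64 controls removed). All 13 arrays entered 1 fit with limma 3.58.1 (R 4.3.3), without a block and with an intensity trend and 8 residual degrees of freedom; adjusted p-values are Benjamini-Hochberg over all probe sets tested, with a threshold of 0.05. The fit was tested on simulated data with known changes and independent noise for each probe set in each array. There it recovered most large changes and missed most small ones. The simulation held no differences shared by whole arrays, such as those seen here, so it does not gauge the fit under them.

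Values were given for the 6 members of highest mean signal and, per comparison, for up to 5 members in each direction with an unadjusted p under 0.05 and no overlap of the groups. For some of them they were given as ranges or for part of the groups. Each member had 1 probe set, so counting every probe set of a gene could not differ from the main choice. The members and lists were chosen with earlier results of these data known. In CKX1, same-numbered arrays deviated together (correlations 0.634, 0.58 and 0.73), so the numbers in the titles were read as pairs. Arrays of unlike number correlated at −0.507 to 0.467, the highest being solvent array 1 with BA array 4. The value of 0.73 belongs to the arrays numbered 3, which both had a high 25S signal. In Col-0, with 2 numbers, pairing was not established. Alternatives were other scalings, other pseudocounts, other filters, a fit without the groups not compared, array weights, a replicate block, the 25S signal as a covariate, and leaving out arrays. The number of arrays limits precision.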

Additional observations from a re-analysis of the deposited data

Results flagged for a closer look

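Within the 4 CKX1 arrays after 15 min of BA, 8 of the 46 tested members had 1 array far from the other 3 on the log2 scale, with a gap to the nearest array above 0.829 of the whole range. The nominal rate of such flags by chance is about 1 in 20 groups. The share of all probe sets flagged was not computed, so the count does not set the peroxidases apart. Over all probe sets, both CKX1 arrays numbered 3 lay above the other 5 CKX1 arrays in 16.9% and below them in 23.1%. In 7 of the 8 flagged members the array was number 3. AT5G64100 read 8225.1 units there (gap 0.938 of the range), AT5G39580 5021.2 (0.93), AT5G64110 443.7 (0.841) and Prx37 352.5 (0.848), all as the highest array. AT1G71695 read 214.7 (0.87), PRX72 158.5 (0.884) and AT2G35380 7.6 (0.879), all as the lowest. In the other gene, AT1G68850, array 2 was the highest at 35.9 units (0.884). The 25S control signal of array 3 was 803.7 units, against 11.1 to 21.0 in the other 3, and its part in these values was not tested.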

How the results depend on the processing

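At 120 min against solvent in Col-0, where 0 members were called, the count was 24 with only the groups compared, 20 with array weights, 3 with the 25S signal as a covariate (median −1.19 in place of −0.45), and 0 to 1 over the leave-one-out fits. The 1 was AT3G01190, without Col-0 15 min array 1 or 2 (adjusted p 0.00363 and 0.00364, with 0.446% and 0.465% of all probe sets called) or without CKX1 15 min array 3 (0.0410, with 0.144%). Between 120 and 15 min the count was 1 with array weights (0.138% of all probe sets) and 4 with the covariate (0.911%). For CKX1 against Col-0 after BA it was 1 (PRX25) with the covariate (0.559%) and 0 to 2 over leave-one-out fits, the 2 being AT3G01190 and AT4G11290 without Col-0 15 min array 1 (0.188%). The cause was not tested. In the other 4 comparisons the leave-one-out counts were 0 to 0.

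Leave-one-out medians ranged from −0.79 to −0.13 at 15 min, −0.69 to −0.40 at 120 min and −0.37 to −0.10 between the times in Col-0, from −0.11 to 0.18 in CKX1, from −0.05 to 0.21 and 0.33 to 0.84 between genotypes with solvent and after BA, and from 0.24 to 0.75 for the interaction. With a replicate block, 9 members were called at 120 min against solvent with a fixed term and 7 with a random term, and 1 between the times with either; it changed no other count, and a fixed term could not be estimated between genotypes. Col-0 deviations of number 1 correlated at −0.02 to 0.11 between groups. Of the named members' values under alternatives, 491 kept their side of the threshold and 28 passed it, and none changed direction. Leaving out the 5 arrays of high 25S signal leaves no Col-0 120 min array, so that comparison was not run.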

Other observations

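The 4 probe sets shared between genes were kept out of the counts, and no gene is named from them. A probe set matching a pair of family genes read 137.9, 74.5, 155.0, 78.0 and 151.3 units in the 5 CKX1 arrays not numbered 3, and 918.1 and 981.8 in the 2 numbered 3, against 112.8 to 182.8 in Col-0. Another such probe set read 735.6 and 932.3 units in Col-0 with solvent, 742.2 and 265.2 after 15 min and 738.9 and 760.7 after 120 min of BA, so 15 min array 2 was low in it while both 120 min arrays were not.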
